A study of Rattus norvegicus with 25 samples.

Results

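Rxfp1 and Rxfp3, the receptors for relaxin and relaxin-3, were described in the basolateral amygdala (BLA) and the dentate gyrus (DG) of stressed and control rats. The members were found by gene name, which gave 2 of the 26312 gene identifiers in the table of each region. They were chosen because Rxfp1, on the measured values of these same libraries, moved differently in the DG and the BLA between stressed rats with low and high anxiety-like behaviour. The group differences of both genes are therefore given as a description, with no test. Only the level by region, the score labels of the controls and the relations with cell-type markers were not used in the choice. The correlations over all libraries still hold the group differences that were used, which deviations from the group means leave out. The marker lists were drawn up with earlier results of these data known.

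RNA sequencing of poly-A RNA was carried out on tissue punches of adult male Sprague-Dawley wild-type rats, with 1 library per rat and region. Rats of the stress groups were held immobile for 3 h in the presence of fox urine, a predator scent, and were then scored over a battery of anxiety tests. Tissue of the left hemisphere was taken on day 9. There were 25 libraries of 14 rats, 13 from the BLA and 12 from the DG, and 11 rats gave both regions, by the animal numbers in the labels. The protocol text of the labels speaks of 12 sequenced animals, 3 of them stress-low. The stress-low animals are numbered 22, 30 and 34 for BLA libraries and 22, 33 and 34 for DG libraries, and whether 30 and 33 are 1 animal could not be settled, so that the counts of rats and of pairs may be off.

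The stress-low group held rats that were stressed and had composite scores of 0 to 2, with 3 libraries in each region. The stress-high group held rats that were stressed and had scores of 13 to 15, again with 3 libraries in each region. Control rats stayed in the home cage with a cage change in place of the stressor, went through the same battery of tests and scored 0 to 6, with 7 BLA and 6 DG libraries. No group carried a transgene or a drug. The stress-exposed rats spent their first nights after the stressor in another room than the controls, so that housing and stress cannot be told apart. All stress-high rats had identification numbers of 20 or less and all stress-low rats had numbers above 20, so that outcome and order of numbering cannot be told apart.

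In each region 1 control stood apart from all other libraries in a principal component analysis and was left out, which left 12 BLA and 11 DG libraries. The left-out BLA control of rat 2 sat at 46.4 on the first component, where the others spanned -17.27 to 12.53. The left-out DG control of rat 35 sat at 56.0, where the others spanned -13.67 to 2.28. Library totals were 12709493 to 22801247 expected counts in the BLA and 11656439 to 19477932 in the DG. The DG stress-high libraries held 16201792 to 19477932 expected counts and the DG stress-low libraries 11656439 to 15547038, with no overlap. Tissue identity followed the labels. The transcription factor Prox1, which marks dentate granule cells, averaged 75.6 TPM, a level scaled for library size and transcript length, in the DG and 2.52 in the BLA, and a list of BLA principal cell genes summed to 399 to 532 TPM in the BLA and 114 to 133 in the DG.

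Relaxin peptides are small hormones related to insulin in structure but act on G protein-coupled receptors. RXFP1, a receptor with a large leucine-rich extracellular domain, binds relaxin and signals mainly through Gs and cyclic AMP, with further branches to nitric oxide, PI3K and ERK. RXFP3 is the receptor of the neuropeptide relaxin-3, which is made chiefly by neurons of the nucleus incertus in the brainstem, and it couples to Gi/o proteins that lower cyclic AMP. Both have been studied in the brain for their part in arousal, feeding, memory and the response to stress.

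Rxfp1 (ENSRNOG00000024120) was moderately expressed in the BLA and low in the DG, whereas Rxfp3 (ENSRNOG00000023126) was low in both regions. Over all groups Rxfp1 averaged 14.7 TPM in BLA and 2.86 TPM in DG libraries. Rxfp3 averaged 2.06 and 2.50 TPM, respectively. Among the genes above 0 in a region, Rxfp1 stood above 64.7% in the BLA and above 36.8% in the DG. Rxfp3 stood above 39.2% of BLA genes and 35.6% of DG genes.

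Counting error was part of the spread of these values. Rxfp1 was covered by 205 to 476 expected counts per BLA library, for which counting error alone gives a coefficient of variation of 5.29% at the median. In the DG it was covered by 31 to 85 counts, with 12.8% at the median. Rxfp3 had 14 to 58 counts in the BLA and 12 to 46 in the DG, with 17.8% and 18.0% at the median. On the log2 CPM scale (counts scaled for library size) the within-group SD of Rxfp1 was 0.26 in BLA and 0.29 in DG libraries, and that of Rxfp3 was 0.42 and 0.47. Counting error and differences between rats both enter these SDs. The punches hold many cell types, and in such bulk tissue fewer cells of a type and less RNA per cell cannot be told apart.

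The first comparison was that between the regions of control rats. Rxfp1 stood at 11.85 to 18.82 TPM with a median of 13.8 in the 6 BLA controls and at 2.56, 3.32, 3.26, 2.22 and 2.24 TPM in the DG controls of rats 2, 14, 17, 28 and 32. Every BLA control lay above every DG control. The mean was 14.5 ± 2.47 TPM in the BLA (SD, n = 6) and 2.72 ± 0.538 TPM in the DG (SD, n = 5). Rxfp1 was lower in the DG by a log2 difference of -2.52 (SE 0.16, adjusted p = 3.33e-12 by edgeR's quasi-likelihood test with Benjamini-Hochberg adjustment). At the same threshold 36.8% of 15453 genes were lower in the DG, and 70.0% differed in either direction, so that a difference between the regions was common. That fit had no term for the rat, although most rats gave a library to both regions. With a replicate block by rat the Rxfp1 difference was -2.60 (adjusted p = 1.35e-09 by edgeR).

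Rxfp3 was not distinguishable between the regions. It stood at 1.07 to 2.78 TPM with a median of 1.845 in the BLA controls and at 1.18, 3.11, 3.22, 1.92 and 2.30 TPM in the DG controls in the same order of rats. The ranges overlapped over most of their width. The DG minus BLA log2 difference was 0.14 (SE 0.27, adjusted p = 0.664 by edgeR), and it was -0.10 with the left-out controls included and -0.01 without the DG control of rat 14. Transcript length exceeded the effective length used for TPM by 50 bases in the BLA table and by 261 to 274 bases in the DG table, so that region and library processing cannot be told apart for either gene.

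Among the groups of the BLA, Rxfp1 showed little separation. Its TPM was 10.69, 12.91 and 17.32 in the stress-low rats 22, 30 and 34. It was 13.33, 16.40 and 18.36 in the stress-high rats 7, 19 and 20, beside the 11.85 to 18.82 of the controls. The 3 groups overlapped, and the lowest value of the region came from a stress-low rat. Group means were 14.5 ± 2.47 TPM in controls (n = 6), 13.6 ± 3.38 in stress-low (n = 3) and 16.0 ± 2.54 in stress-high rats (n = 3, all SD). The log2 difference was 0.25 (SE 0.18) from stress-low to stress-high, -0.12 (SE 0.16) from control to stress-low and 0.13 (SE 0.16) from control to stress-high. Without any 1 library the first of these ran from 0.12 to 0.50 and the next from -0.37 to 0.01. Controls numbered 20 or less averaged 16.2 TPM (n = 2) and those numbered above 20 had 13.7 ± 1.67 TPM (SD, n = 4). With the order of numbering as a covariate, which only the controls inform, the stress-low to stress-high difference was -0.01. Of 19 cell-type marker lists, 0 had a summed TPM that separated stress-low from either other group of the BLA, and 1, that of the hippocampal fields CA2 and CA3, separated controls (313.8 to 397.6 TPM) from stress-high rats (412.8 to 491.6 TPM). Pcp4 alone averaged 254.5 TPM in that list, beside at most 41.0 TPM for any other of its genes, so that the sum mostly follows Pcp4. The share of all genes that separated these groups was not computed.

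In the DG Rxfp1 was highest in the stress-low rats and lowest in the stress-high rats, which is the pattern it was chosen on. TPM was 3.87, 3.49 and 4.35 in the stress-low rats 22, 33 and 34. It was 1.43, 2.08 and 2.6 in the stress-high rats 7, 19 and 20, beside 2.22 to 3.32 in the 5 controls. All 3 stress-low libraries lay above all controls and all stress-high libraries, whereas the highest stress-high library lay inside the range of the controls. Group means were 2.72 ± 0.538 TPM in controls (n = 5), 3.90 ± 0.431 in stress-low (n = 3) and 2.04 ± 0.586 in stress-high rats (n = 3, all SD).

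The log2 difference of Rxfp1 in the DG was -0.92 (SE 0.24) from stress-low to stress-high, 0.52 (SE 0.21) from control to stress-low and -0.40 (SE 0.22) from control to stress-high. The 3 differences share their libraries, the control libraries included, and are not separate pieces of evidence. Of 14080 genes tested in the DG, 4.51% were likewise lower in all stress-high than in all stress-low libraries, and 1.92% were higher in all stress-low than in all control libraries. Nothing is read from these shares, because the gene was chosen on the contrast. These values ran from -1.11 to -0.74, from 0.45 to 0.64 and from -0.59 to -0.22 when any 1 library was removed.

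Sequencing depth and order of numbering moved with the DG groups. Totals did not overlap between stress-low and stress-high libraries, as given above, and the part of depth in the difference was not tested. Among the DG controls, Rxfp1 was 3.05 ± 0.423 TPM in the 3 rats numbered 20 or less and averaged 2.23 TPM in the 2 rats numbered above 20. In the stressed rats the low numbers had the lower values, and there numbering and outcome cannot be told apart. With the order of numbering as a covariate, which only the controls inform, the log2 difference was -1.41 from stress-low to stress-high. From control to stress-low it was 0.83 in that fit. None of 19 cell-type marker lists had a summed TPM that separated stress-low from stress-high libraries in the DG, and none separated control from stress-low libraries.

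The stress-low to stress-high difference of Rxfp1 was lower in the DG than in the BLA by a log2 value of -1.15 (SE 0.30), which is again the contrast used in the choice. It was -1.40 to -0.98 when 1 library was left out. For Rxfp3 the same quantity was -0.64 (SE 0.50), with -1.06 without the BLA stress-low library of rat 30 and -0.40 without the DG stress-low library of rat 33.

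**Figure D1:**
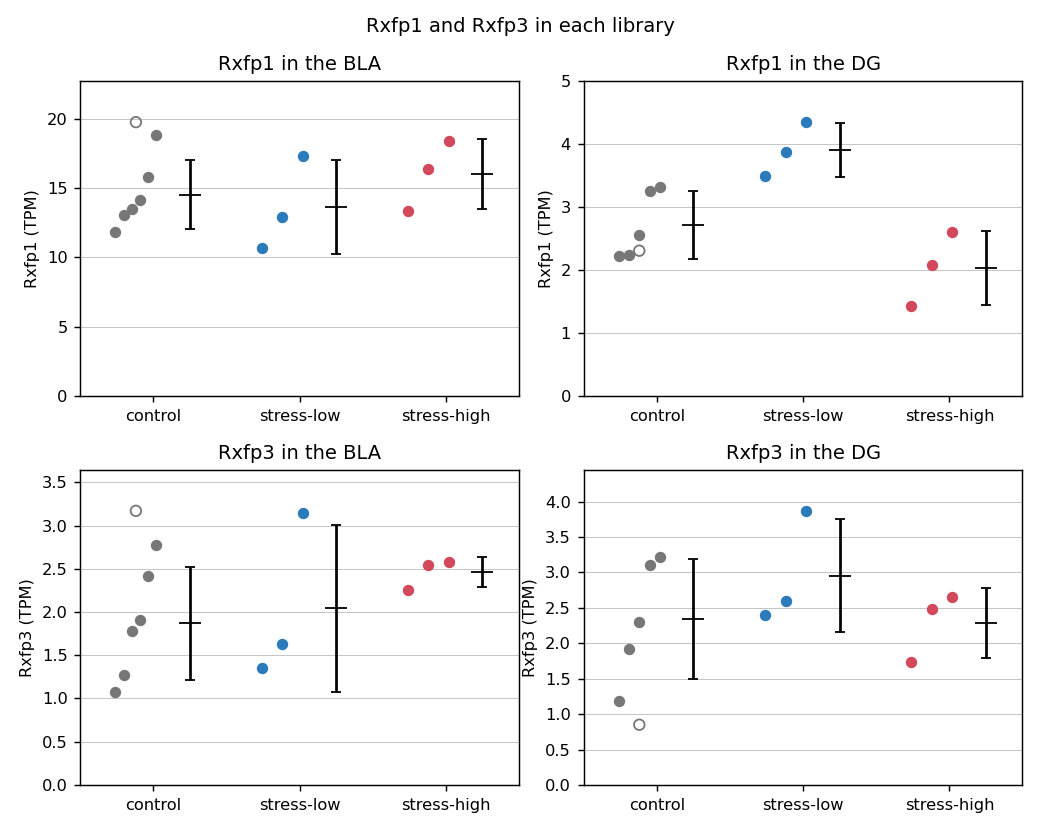
TPM of Rxfp1 (top) and Rxfp3 (bottom) in each library of the BLA (left) and DG (right), by group, with bars for the mean and SD and an open circle for the control left out. The stress-low DG libraries of Rxfp1, at 3.49 to 4.35 TPM, lie above every other DG library, while the BLA groups of both genes overlap.

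Rxfp3 varied more within groups than it differed between them. In the BLA it was 1.35, 3.15 and 1.63 TPM in the stress-low rats 22, 30 and 34, and 2.26, 2.58 and 2.54 TPM in the stress-high rats 7, 19 and 20. All 6 values were inside or close to the 1.07 to 2.78 TPM of the controls, with rat 30 above them. The means were 1.87 ± 0.654 TPM in controls (n = 6), 2.04 ± 0.969 in stress-low (n = 3) and 2.46 ± 0.174 in stress-high rats (n = 3, all SD). The log2 differences were 0.30 (SE 0.33) from stress-low to stress-high, 0.11 (SE 0.29) from control to stress-low and 0.40 (SE 0.29) from control to stress-high.

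In the DG Rxfp3 was 2.59, 3.87 and 2.40 TPM in the stress-low rats 22, 33 and 34, and 2.48, 2.66 and 1.73 TPM in the stress-high rats 7, 19 and 20. Both groups overlapped each other and the controls, which spanned 1.18 to 3.22 TPM. The means were 2.35 ± 0.850 TPM in controls (n = 5), 2.95 ± 0.800 in stress-low (n = 3) and 2.29 ± 0.493 in stress-high rats (n = 3, all SD). The log2 differences were -0.36 (SE 0.35), 0.33 (SE 0.31) and -0.03 (SE 0.31) in the same order of contrasts. These differences depended on single libraries. In the BLA the stress-low to stress-high value was 0.10 without rat 22 and 0.71 without rat 30, and in the DG it ran from -0.50 to -0.12 with 1 library left out. The control to stress-low value ran from -0.31 to 0.30 in the BLA and from 0.09 to 0.49 in the DG. The control to stress-high value in the DG ran from -0.19 to 0.15, so that its sign, like that of control to stress-low in the BLA, was not the same in every such fit.

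**Figure D2:**
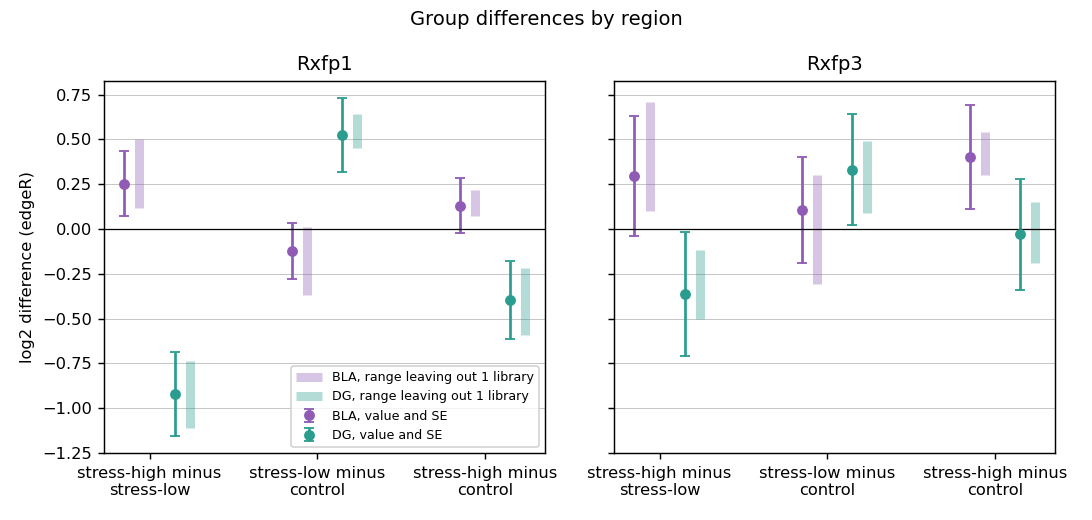
Log2 differences of Rxfp1 and Rxfp3 between groups from the edgeR fits, with SE as error bars and a pale bar for the range when 1 library is left out, BLA in purple and DG in green. The stress-low to stress-high value of Rxfp1 in the DG is -0.92, and its pale bar runs from -1.11 to -0.74.

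The balance of the receptors differed by region more than by group. The ratio of Rxfp1 to Rxfp3 TPM was 8.58 ± 3.12 in BLA controls (n = 6), 7.55 ± 3.28 in stress-low (n = 3) and 6.49 ± 0.676 in stress-high rats (n = 3, all SD). In the DG it was 1.28 ± 0.504 in controls (n = 5), 1.40 ± 0.462 in stress-low (n = 3) and 0.954 ± 0.487 in stress-high rats (n = 3, all SD). The SDs of the groups of a region overlapped. Over libraries, the Pearson correlation of the 2 receptors was 0.22 in the BLA (rho 0.12, n = 12, permutation p = 0.483, adjusted p = 0.886) and 0.33 in the DG (rho 0.31, n = 11, permutation p = 0.330, adjusted p = 0.782). With 1 library left out these ran from 0.05 to 0.36 and from 0.24 to 0.44. The adjustment covered all 76 relations that were computed. Across the 9 rats with both regions in use, the level in the BLA showed no detectable relation with that in the DG for Rxfp1 (r = 0.06, rho 0.23, exact permutation p = 0.884, adjusted p = 0.960) or Rxfp3 (r = -0.09, rho -0.05, exact permutation p = 0.809, adjusted p = 0.930). For Rxfp1 these values hold the group differences used in the choice. On deviations from the group means r was 0.59 for Rxfp1 and 0.10 for Rxfp3, which was not tested. Without the 2 rats farthest from the median BLA level r was 0.47 for Rxfp1 and -0.40 for Rxfp3.

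The score labels of the controls gave a comparison within control rats that the choice of the genes had not used. In the DG Rxfp3 was 2.88 ± 0.502 TPM in the 3 controls with the high label (SD) and 1.18 and 1.92 TPM in the 2 with the low label. The log2 difference of 0.89 (SE 0.35, unadjusted p = 0.0249 by edgeR) did not pass the adjustment over all genes (adjusted p = 0.999). With the left-out control included it was 1.07, with an adjusted p of 0.544 by edgeR, and with 1 control removed it ran from 0.60 to 1.3. At an unadjusted p under 0.05, 3.62% of the DG genes were called, and at an adjusted p under 0.05 1 gene was, which is 0.00710% of them.

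For Rxfp1 in the DG the controls with the high label had 2.94 ± 0.607 TPM (SD, n = 3) and those with the low label averaged 2.39 TPM (n = 2), a log2 difference of 0.32 (SE 0.27, adjusted p = 0.999 by edgeR). In the BLA both genes were also numerically higher under the high label. Rxfp1 was 16.0 ± 2.67 against 13.0 ± 1.13 TPM, with a log2 difference of 0.28 (SE 0.17), and Rxfp3 was 2.16 ± 0.544 against 1.59 ± 0.729 TPM, with a log2 difference of 0.43 (SE 0.34, SD over 3 rats each). Both had an adjusted p of 0.997 by edgeR. With the left-out control of rat 2 included, which carried the low label, the BLA log2 differences were 0.17 for Rxfp1 and 0.18 for Rxfp3. With 1 control removed, Rxfp1 ran from 0.15 to 0.37 in the BLA and from 0.18 to 0.50 in the DG. Rxfp3 in the BLA ran from 0.23 without rat 32 to 0.80 without rat 27, where the adjusted p by edgeR was 0.854. In the BLA 3.47% of genes had an unadjusted p under 0.05 in this contrast, and the share at an adjusted p under 0.05 was 0%.

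Of the ligands, Rln1, which encodes relaxin, averaged 1.23 TPM in the BLA, from 2 to 18 counts per library, and 0.363 TPM in the DG, from 0 to 5 counts. Rln1 was lower in the DG of controls by a log2 difference of -2.30 (SE 0.55, adjusted p = 0.000780 by edgeR). In the BLA its group means were 1.12 TPM in controls, 1.10 in stress-low and 1.59 in stress-high rats, and the stress-low to stress-high log2 difference was 0.54 (SE 0.49). Transcripts of relaxin and its receptor Rxfp1 were both called lower in the DG, as were 36.8% of the 15453 genes tested. For Rln1 too, region and library processing cannot be told apart.

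Rln3, which encodes relaxin-3, averaged 0.311 TPM in the BLA and 0.494 TPM in the DG, with 0 to 7 counts per library. This is close to the limit of detection. The transcript counted here is that made by cells in the punch, and peptide carried in by axons from the brainstem is not measured by RNA sequencing. Insl3, a testicular peptide of the family, averaged 0.0733 TPM in the BLA with 8 of 12 libraries at 0, and was at 0 in all 11 DG libraries. Insl6, also best known from the testis, averaged 0.0192 TPM in the BLA and 0.0145 in the DG.

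Rxfp2, the receptor of insulin-like peptide 3, averaged 0.451 TPM in the BLA, from 4 to 21 counts, and 0.0664 TPM in the DG, from 0 to 4 counts. It too was lower in the DG of controls, by a log2 difference of -2.75 (SE 0.58, adjusted p = 0.000199 by edgeR). The same share of 36.8% of all genes stands beside this call, and region and processing again cannot be told apart. The stress-low to stress-high log2 difference of Rxfp2 in the BLA was 0.64 (SE 0.56). The ligand Insl5 and the receptor Rxfp4 were not found by name and were not analysed here.

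The signalling genes downstream of the receptors were described next, as 6 lists covering Gs and cyclic AMP, Gi/o and beta-arrestin, ERK and JNK, PI3K and PKC, nitric oxide and vascular genes, and matrix and TGF-beta genes. Of these, 81 genes were tested in the BLA and 80 in the DG. At an adjusted p under 0.05 by edgeR, 0 list genes changed in any of the contrasts of either region. The same threshold called 0% of all genes between stress-low and stress-high, control and stress-low, and control and stress-high groups of both regions. Over all genes, DESeq2 at its adjusted p called 0, 1 and 1 BLA genes and 3, 4 and 1 DG genes in these contrasts.

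At an unadjusted p under 0.05, the lists were close to the share over all genes. In the BLA 1 of 81 passed from stress-low to stress-high (1.23%, beside 1.98% of all 15230 genes), 2 from control to stress-low (2.47%, beside 2.75%) and 2 from control to stress-high (2.47%, beside 2.57%). In the DG 2 of 80 passed from stress-low to stress-high (2.50%, beside 3.12% of all 14080 genes), 6 from control to stress-low (7.50%, beside 6.90%) and 0 from control to stress-high (beside 2.19%). From stress-low to stress-high the median log2 difference of the list genes was 0.0021 (BLA) and -0.015 (DG), beside -0.00055 and -0.00017 over all genes.

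In the Gs and cyclic AMP list, Adcy8, an adenylyl cyclase stimulated by calcium, had the smallest p of the DG. It averaged 8.30 ± 2.32 TPM in controls (n = 5), 8.64 ± 1.98 in stress-low (n = 3) and 6.11 ± 0.279 in stress-high rats (n = 3, all SD), with a stress-low to stress-high log2 difference of -0.51 (SE 0.21, unadjusted p = 0.0338, adjusted p = 0.9996 by edgeR). Adcy6, another adenylyl cyclase, had 0.11 (SE 0.07). In the BLA the leading genes of this list were Pde4d, a phosphodiesterase that breaks down cyclic AMP, at 0.14 (SE 0.08), and the adenylyl cyclase Adcy9, at 0.21 (SE 0.13). None of these passed the adjustment.

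In the Gi/o and beta-arrestin list, the list nearest to Rxfp3, the leading genes of the DG were Gnai1, an inhibitory G protein subunit, at a log2 difference of -0.15 (SE 0.07), and Arrb2, a beta-arrestin, at 0.18 (SE 0.09). In the BLA they were Arrb1 at 0.08 (SE 0.10) and Arrb2 at 0.05 (SE 0.08). In the ERK and JNK list, Mapk8, which encodes JNK1, had -0.23 (SE 0.13) in the DG, and the leading genes of the BLA were Mapk9 at 0.09 (SE 0.06) and Mapk3, which encodes ERK1, at -0.16 (SE 0.12).

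In the PI3K and PKC list, Pik3cg, a catalytic subunit of PI3K, had 0.53 (SE 0.26) in the DG at about 1 TPM and 0.23 (SE 0.19) in the BLA. Pik3r1, a regulatory subunit, had -0.11 (SE 0.09) in the DG. In the nitric oxide and vascular list, the growth factors Vegfb and Vegfa had 0.30 (SE 0.17) and 0.17 (SE 0.13) in the DG, and the NF-kappaB subunit Rela and the endothelin receptor Ednrb had -0.14 (SE 0.11) and -0.10 (SE 0.08) in the BLA. In the matrix and TGF-beta list, the cytokine Tgfb1 had -0.31 (SE 0.14, unadjusted p = 0.0484, adjusted p = 1 by edgeR) in the BLA and 0.30 (SE 0.24) in the DG. The collagen gene Col4a2 had 0.08 (SE 0.09) in the BLA and the TGF-beta effector Smad2 had -0.14 (SE 0.10) in the DG.

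The relation of the receptors to cell-type markers was examined over libraries within each region, with the mean log2(TPM + 1) of each of the 18 lists with at least 3 measured genes. None of the 76 relations had an adjusted p under 0.05. For Rxfp1 in the BLA, 13 of 18 correlations were positive and 1 had an unadjusted permutation p under 0.05. The highest was with genes of the claustrum, endopiriform nucleus and deep cortex, which adjoin the BLA (r = 0.62, rho 0.52, n = 12, permutation p = 0.0314, adjusted p = 0.478). It was 0.59 on deviations from the group means and 0.31 without the 2 libraries farthest from the median of the list, so that it rested in part on those libraries. Among the genes of that list, Nr4a2 had the highest r at 0.64, followed by Foxp2 at 0.42, Oprk1 at 0.41, Ntng2 at 0.35, Cplx3 at 0.29 and Tle4 at 0.18, with Ctgf at -0.0014. The lowest relation was with dentate granule cell genes, at r = -0.31 (rho -0.38, permutation p = 0.319, adjusted p = 0.782), which ran from -0.47 to -0.09 with 1 library left out. It was -0.76 without the 2 libraries farthest from the median of that list and -0.18 on deviations from the group means, so that it depended on few libraries.

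For Rxfp1 in the DG, 16 of 18 correlations were positive, and the lowest was with the dentate granule cells, the principal neurons of the tissue. That r was -0.59 (rho -0.51, n = 11, permutation p = 0.0580, adjusted p = 0.629), with -0.60 within groups and -0.51 without the 2 farthest libraries. All 6 granule genes had a negative r with Rxfp1, at -0.57 for C1ql2, -0.56 for Plk5, -0.54 for Dsp, -0.39 for Prox1, -0.30 for Calb1 and -0.29 for Stxbp6. The summed TPM of the list was 617 to 953 in controls, 623 to 720 in stress-low and 645 to 800 in stress-high libraries, and these ranges overlapped.

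The highest r of Rxfp1 in the DG was with the glutamatergic list, at 0.49 (rho 0.48, n = 11, permutation p = 0.129, adjusted p = 0.735). On deviations from the group means it was 0.79 (permutation p = 0.0132, adjusted p = 0.243), and without the 2 farthest libraries 0.54. It was 0.20 without the stress-high library of rat 7 and 0.74 without the stress-low library of rat 33. Of its genes, Neurod6 had 0.55, Tbr1 0.44, Slc17a7 0.35, Slc17a6 0.18 and Camk2a -0.10. The list summed to 3042 to 3384 TPM in controls, 2825 to 3155 in stress-low and 2773 to 3396 in stress-high libraries. The part of cell composition in the level of Rxfp1 was not tested.

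Rxfp3 in the BLA had positive correlations with all 18 lists, 5 of them with an unadjusted permutation p under 0.05. The highest was with genes of the thalamus (r = 0.84, rho 0.83, n = 12, permutation p = 0.0007, adjusted p = 0.0532). It was 0.84 on deviations from the group means and 0.83 without the 2 farthest libraries, but it missed the threshold after adjustment. With 1 library left out it ran from 0.78 to 0.88. The adjusted p was 0.0391 without the stress-high library of rat 7 and 0.0426 without the control of rat 27, and with the left-out control included r was 0.63. Each gene of the list had a positive r, from 0.69 for Rora and Slc17a6 through 0.63 for Tcf7l2, 0.58 for Calb2 and 0.48 for Lef1 to 0.29 for Zic1. The list summed to 83.9 to 187 TPM in the BLA and 20.9 to 27.3 in the DG, and Slc17a6 and Calb2 also belong to other lists.

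The next was with oligodendrocyte precursors, at r = 0.78 (permutation p = 0.00324, adjusted p = 0.123). The lowest was with the central amygdala and striatum, at r = 0.12 (rho 0.20, permutation p = 0.701, adjusted p = 0.930), which was -0.27 without the stress-low library of rat 30. In the DG Rxfp3 was highest with astrocytes, at r = 0.41 (rho 0.39, permutation p = 0.212, adjusted p = 0.735), which was -0.15 without the 2 farthest libraries and so rested on them. It was lowest with the hippocampal fields CA2 and CA3, at r = -0.48 (rho -0.38, permutation p = 0.137, adjusted p = 0.735), and -0.85 without the 2 farthest libraries. With 1 library left out these ran from 0.29 to 0.63 and from -0.59 to -0.25.

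**Figure D3:**
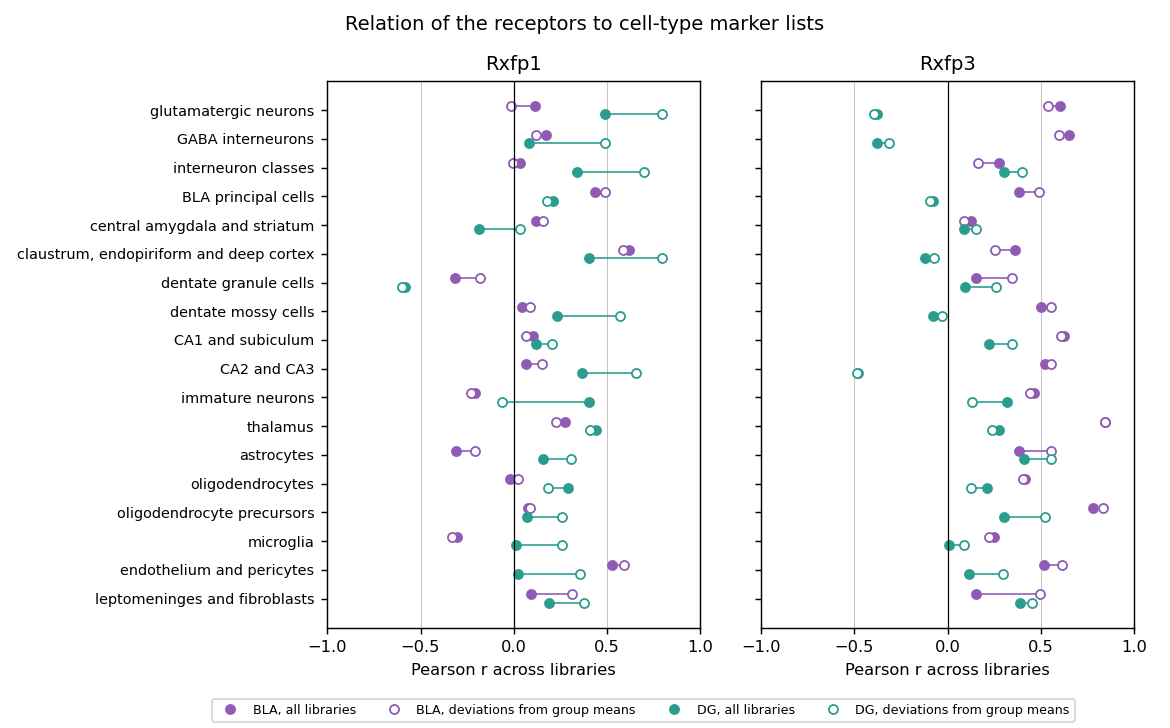
Pearson r of Rxfp1 and Rxfp3 with the mean log2(TPM + 1) of each marker list in the BLA and DG, filled symbols for all libraries and open symbols for deviations from the group means. Among the filled symbols, the highest is Rxfp3 with the thalamus list in the BLA, at 0.84. The lowest filled symbol is Rxfp1 with the dentate granule list in the DG, at -0.59.

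**Figure D4:**
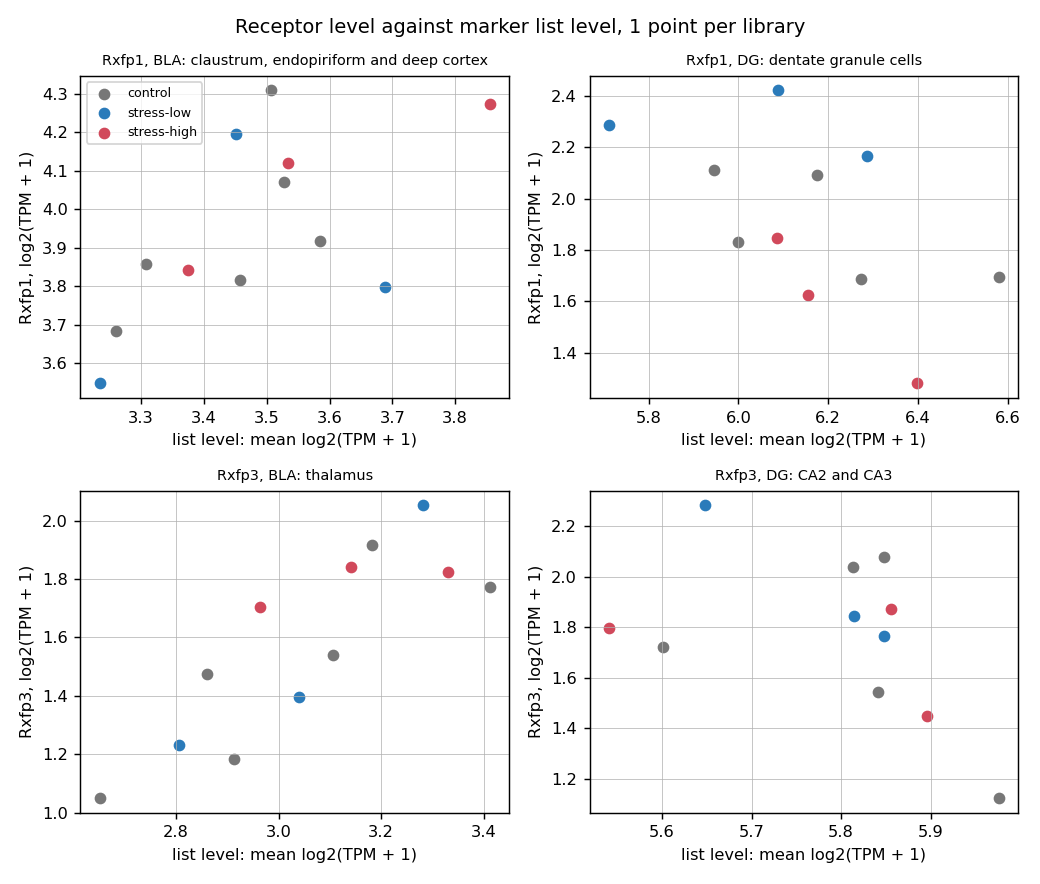
Log2(TPM + 1) of a receptor against the mean log2(TPM + 1) of a marker list, 1 point per library, for Rxfp1 with the claustrum list in the BLA (r = 0.62) and the dentate granule list in the DG (r = -0.59), and for Rxfp3 with the thalamus list in the BLA (r = 0.84) and the CA2 and CA3 list in the DG (r = -0.48). The 3 groups are mixed along the horizontal axis of each panel.

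The genes whose level was most like that of Rxfp1 differed between the regions. Over 12 BLA libraries and 14420 genes of at least 1 TPM, the highest Pearson r was 0.90 for Cmya5, followed by Sgms2, a sphingomyelin synthase, at 0.83, the sorting receptor Sorl1 at 0.80, Mettl21a at 0.80 and Zbtb42 at 0.76. The lowest were Ccdc28b at -0.87, RGD1305045 at -0.84 and Mocs2, of molybdenum cofactor synthesis, at -0.84. Over 11 DG libraries and 13564 genes, the highest were Aak1, a kinase of clathrin-mediated endocytosis, at 0.93, the orexin receptor Hcrtr2 at 0.93, the synaptic kinase Plk2 at 0.89, the synaptic phosphatase Synj1 at 0.89 and Cyp2j10 at 0.87. The lowest were Gpr161 at -0.91, Tspan33 at -0.90 and Ccdc88b at -0.85. On deviations from the group means Aak1 had 0.97, Hcrtr2 0.78 and Cyp2j10 0.58. These values are the extremes of many genes over few libraries, and are given as a description.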

How the data were processed

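Per the paper's methods and the labels, STAR 2.6.0a and RSEM 1.3.1 were run by the authors on the rat Rn5 genome with an Ensembl annotation, who deposited, per region, a table of expected counts and TPM per gene. The expected counts, an estimate of the reads of each gene deposited by the authors, were rounded and tested with edgeR 4.0.16 (R 4.3.3). The deposited TPM values were used for levels and, as log2(TPM + 1), for correlations. Each table held 26312 identifiers, of which 5742 had no name.

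Libraries were grouped by the labels. In 1 BLA control (rat 35) a treatment field named stress while its name and the DG library of the rat gave control, which was used. The control farthest from the median on the first principal component was left out in each region, as the study left out 1 control per region. Of the 7 BLA controls in the labels 6 were kept, whereas the paper describes 6 sequenced controls before its exclusions. Which BLA control is the additional one could not be settled. Low counts were filtered with filterByExpr (min.count 10), libraries were scaled by TMM, and the 3 groups of a region were fitted together, with Benjamini-Hochberg adjustment over 15230 BLA or 14080 DG genes, or 15453 in the fit of both regions. The study's own tool, EBSeq, was not run. Library totals were 11656439 to 22801247 expected counts. Rxfp3 in both regions and Rxfp1 in the DG had fewer than 100 counts in every library, and counting error was part of their spread. Within a region, libraries were of separate rats by the labels. The fit of both regions held both libraries of a rat with no term for the rat, except in the replicate block by rat.

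Correlations used 2-sided permutation tests with 100000 resamples (exact for 9 rats), adjusted over 76 relations. Marker lists needed 3 genes with a mean of 0.5 TPM. Alternatives were other size factors, no filter, all mapped libraries, only the groups compared, a replicate block, order of numbering as covariate, limma 3.58.1 on log2(TPM + 1) or log2(TPM + 0.1), DESeq2 1.42.0 and leaving out 1 library. Only the edgeR test from stress-low to stress-high was tried on simulated counts, in each region. Libraries of 1 rat in both regions deviated together, with r of 0.074 to 0.23 over 9 rats, of which 8 correlated best with their own, and the pairing comes from the rat numbers in the labels.

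The members and all lists were chosen with earlier results of these data known. Named were both receptors, the listed ligands and receptors, the 2 genes of each signalling list with the smallest p from stress-low to stress-high per region, the marker lists with the highest and lowest r and their genes, and the 5 most and 3 least like genes of Rxfp1. Of the genes this rule named, 2 are not reported here. The oligodendrocyte precursor list was named beyond this rule after its value was seen. Coordinates and sequences were not used here.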

Additional observations from a re-analysis of the deposited data

Results flagged for a closer look

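In the left-out BLA control of rat 2, Rxfp1 was 19.75 TPM, above the 11.85 to 18.82 TPM of the other controls, and Rxfp3 was 3.17 TPM, above their 1.07 to 2.78 TPM.

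Of 36 control groups looked at, those of Mapk8 and Vegfa in the DG held 1 library far from the others, where chance gives about 1 in 20. Mapk8 was 27.4 TPM in the DG control of rat 14 and 20.18 to 22.02 TPM in the other DG controls. Vegfa was 32.98 TPM in the DG control of rat 17 and 22.83 to 24.87 TPM in the others. Insl6 was 0.14 TPM in the BLA control of rat 32, which is 1 count, and 0 in the others, so that its distance from them rests on a single count.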

How the results depend on the processing

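Group differences of Rxfp1 and Rxfp3 moved by less than the spread between replicates in 58 of 60 alternatives from stress-low to stress-high, 69 of 70 from control to stress-low and 70 of 70 from control to stress-high. That spread, the within-group SD of 0.26 to 0.47, was larger than several of the differences, so that this is a loose measure. A change of sign within it was counted as not moved, as for Rxfp3 in the BLA from control to stress-low (-0.31 to 0.30 with 1 library left out). The exceptions came with the order of numbering as covariate, which gave Rxfp1 -0.01 in the BLA and, in the DG, -1.41 and 0.83. Between regions Rxfp3 was -0.10 with all mapped libraries and -0.01 to 0.30 with 1 library left out. A replicate block by rat gave -2.60 for Rxfp1 and 0.23 for Rxfp3 between regions and changed no call. The numbers in the library titles do not pair libraries within a region (r of -0.19 to 0.04), and a replicate block on them gave -0.96 for Rxfp1 from stress-low to stress-high in the DG. Over 155 alternatives for the highest and lowest relations and those between the receptors within a region, 152 kept sign and call. In 1 the sign turned, and in 2 the adjusted p fell under 0.05. With 1 library left out, the r of Rxfp3 with the thalamus list ran from 0.78 to 0.88. That with the central amygdala and striatum ran from -0.27 to 0.59.

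Among signalling genes, 0 passed the adjusted p in 100 of 100 alternatives, whereas counts at an unadjusted p stayed within 1.5 times in 53 of 100. The sign turned in 5 of 360 alternatives for named genes. In the BLA Arrb1 ran from -0.01 to 0.14, Arrb2 from -0.002 to 0.08 and Col4a2 from -0.003 to 0.15 without 1 library. With the covariate Arrb2 was -0.10 in the BLA and Vegfa -0.08 in the DG. The cause of these shifts was not tested. Low counts limit Rxfp3, its ligands and Rxfp2 most.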
